A study of Mus musculus with 2 samples.

Results

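The transcripts of p53 and 9 genes that it controls were compared between liver tumor RNA of Fabp4-/- mice and liver tumor RNA of WT mice. The members were Trp53, Cdkn1a, Mdm2, Ccng1, Trp53inp1, Phlda3, Eda2r, Bax, Sesn2 and Gdf15, found by gene name in the deposited table. All 10 were among its 48526 genes, and all 10 reached the minimum of 1 TPM in the higher library that 13557 genes reached. TPM is a share of all transcripts in a library, corrected for transcript length. Male C57BL/6N mice of both genotypes, Fabp4-/- and WT, had received the DNA-alkylating carcinogen N-nitrosodiethylamine (DEN) at the age of 14 days (25 mg/kg, intraperitoneally), and from 6 weeks of age they ate a high-fat diet (HFD) for 29 weeks. The knockout was global, so it removed FABP4, a lipid chaperone made by adipocytes and macrophages, from every tissue. Each genotype had 1 library of polyA RNA, and the sources used here do not give how many mice or tumor nodules each library holds. No difference between the genotypes could therefore be set against the spread between animals or tumors, and no p-value is given.

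p53 is a transcription factor that cells stabilize after DNA damage and other stresses. It binds DNA as a tetramer at pairs of half-sites and raises the transcription of genes that stop the cell cycle, promote apoptosis, repair DNA or adjust metabolism. One of its targets, Mdm2, encodes the ubiquitin ligase that degrades p53, so the pathway limits itself. In the liver, p53 restrains the growth of damaged hepatocytes. DEN is activated by hepatocyte cytochrome P450 enzymes into a product that alkylates DNA.

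The libraries held 59600850 estimated read pairs for Fabp4-/- and 56353665 for WT, so every member rested on at least 210 read pairs. Fabp4 itself was at 0.03 TPM in the Fabp4-/- library and 44.1 TPM in the WT library. Hepatocyte markers were abundant in both, with Apoa1 at 40741 TPM in the Fabp4-/- library and 29747 TPM in the WT library. Over the 13557 measured genes, log2 of Fabp4-/- TPM over WT TPM, each with 0.5 added, had a median of −0.46. A member's relative ratio below is its log2 ratio minus this median, and a gene is called higher or lower where it differs at least 2-fold from the median gene. The authors' normalised counts, whose median log2 ratio was 0.04, were used as a second measure. Their ratios carry a 95% exact binomial interval that covers counting error only. As these are bulk samples, fewer cells of a type and less RNA per cell cannot be told apart.

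The stretches upstream of 5 members that hold a consensus p53 half-site are shown here because p53 acts through such sites. The half-site runs from purines through C, a pair of A or T bases and G to pyrimidines, 10 bases in all, and equals its own reverse complement, so 1 search covers both strands. No mismatch was allowed. Windows from 250 bases before to 50 bases after each RefSeq start site (GRCm38.p6) were searched, and 8.36% of all 32851 windows hold a half-site. Of the 10 members, 9 had a window, and 5 of these 9 hold a half-site. Counted by window, as the 8.36% is, 5 of their 11 windows hold a half-site. The capitals mark the half-sites, and each stretch reads 5′ to 3′ on the gene's own strand and ends before the start site.
Cdkn1a, chr17:29090886-29090957, plus strand: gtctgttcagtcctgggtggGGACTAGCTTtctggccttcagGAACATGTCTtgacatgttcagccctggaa
Mdm2, chr10:117710915-117710964, minus strand: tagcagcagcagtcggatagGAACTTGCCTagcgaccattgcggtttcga
Ccng1, chr11:40755442-40755491, minus strand: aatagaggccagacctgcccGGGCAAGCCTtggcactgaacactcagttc
Bax, chr7:45467070-45467119, minus strand: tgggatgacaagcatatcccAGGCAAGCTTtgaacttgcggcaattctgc
Trp53, chr11:69580264-69580313, plus strand: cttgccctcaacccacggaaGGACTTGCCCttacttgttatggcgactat
Among the 9 members with a window, only Cdkn1a had a full site in it, a pair of half-sites separated by at most 13 bases, which 24 of the 32851 windows (0.0731%) hold. Its half-sites begin 73 and 51 bases before the start site, with 12 bases between them. Directly after the latter half-site, the next 10 bases miss the pattern only at their first base. They stand in lower case because no mismatch was allowed, and which bases p53 binds was not tested. The start used here is the upstream one of Cdkn1a, and the window of the other start, 2790 bases further along, holds no half-site. The half-site begins 186 bases before the start in Mdm2, 185 in Ccng1, 201 in Bax and 75 in Trp53. The windows of Phlda3, Eda2r, Sesn2 and Gdf15 hold none, which says only that these letters are not in them. Likewise, a half-site in a window says only that its letters are there, and sites outside the windows were not searched.

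Of the 10 members, 4 were called lower in the Fabp4-/- tumor library and 0 were called higher. They were Phlda3, Eda2r, Mdm2 and Ccng1. Over all measured genes, 4.94% were called lower and 4.61% higher. The same count by normalised counts was 3 lower and 0 higher, against 7.60% lower and 5.76% higher over all genes, and the gene lost was Ccng1. In all, 9 members lay below the median gene, and the exception was Trp53inp1, which was lower too when the ratios were not centred. The median relative ratio of the members was −0.60, where the median of all genes is 0 by construction, and their median by normalised counts was −0.54.

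**Figure D1:**
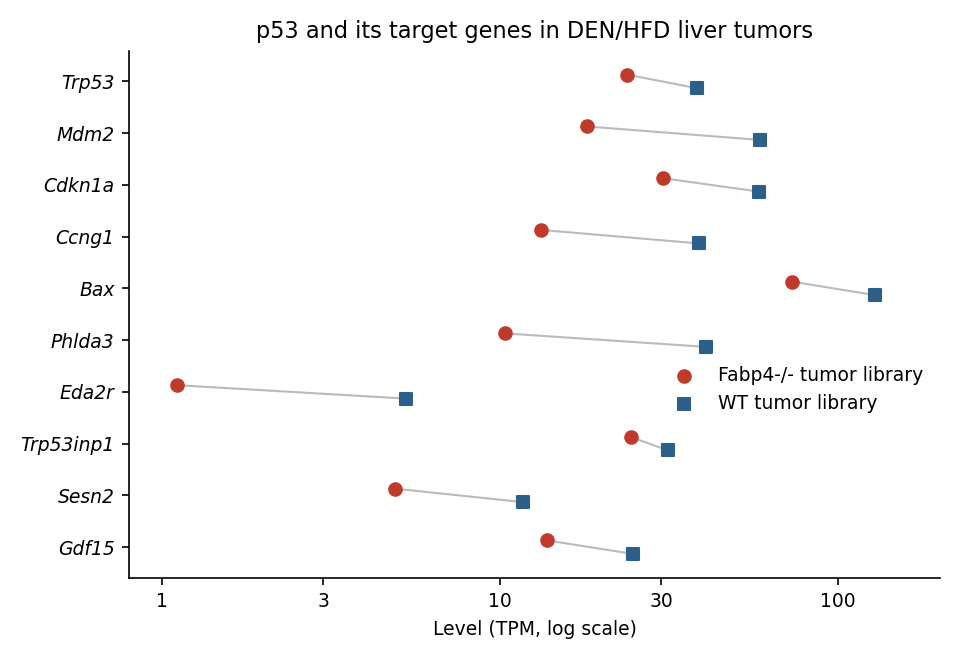
Level of each member in TPM (log axis) in the Fabp4-/- library (red circles) and the WT library (blue squares), 1 library each. All 10 genes lie further left in the Fabp4-/- library before the shift of the median gene is taken off, with the widest gap at Eda2r (1.11 against 5.29 TPM) and the narrowest at Trp53inp1 (24.34 against 31.42 TPM).

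Trp53 (chr11:69580359-69591873), the gene of p53, was close to the median gene, whereas Mdm2, its target and inhibitor, was lower. Trp53 was at 23.83 TPM in the Fabp4-/- library and 38.26 TPM in the WT library, a relative ratio of −0.21. By normalised counts its log2 ratio was −0.05 with an interval of −0.13 to 0.03, which includes 0. The pseudogene Trp53-ps is listed at 0 in both libraries. Mdm2 (chr10:117688888-117710758) was at 18.09 TPM in the Fabp4-/- library and 58.73 TPM in the WT library. Its relative ratio was −1.21, and only 426 of the 13557 measured genes had a lower one. By normalised counts Mdm2 was 2.03-fold lower, with 2374 estimated read pairs in the Fabp4-/- library and 6188 in the WT library. That log2 ratio, −1.02, had an interval of −1.09 to −0.95, which includes the 2-fold threshold.

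Among 18 measured regulators of p53, 2 were called lower and 0 higher, with a median relative ratio of −0.04. The lowest was Cdkn2a, which encodes the cell cycle inhibitor p16Ink4a and, from another reading frame, p19Arf, an inhibitor of the MDM2 protein. Cdkn2a was at 5.2 TPM in the Fabp4-/- library and 50.68 TPM in the WT library, a relative ratio of −2.71 and a log2 ratio of −2.69 by normalised counts (−2.92 to −2.47). The table gives 1 value for the gene, so the transcripts of the 2 proteins cannot be told apart in it. Cdkn2b, the neighbouring gene for the inhibitor p15Ink4b, had 27.46 TPM in the Fabp4-/- library and 44.62 TPM in the WT library, a relative ratio of −0.23. The other regulator called lower was Ep300, an acetyltransferase that modifies p53 and histones, at 2.64 and 8.42 TPM in the Fabp4-/- and WT libraries. Mdm4, the relative of Mdm2 that binds and inhibits p53, was at 7.12 TPM in the Fabp4-/- library and 18.14 TPM in the WT library, a relative ratio of −0.83 that was not called.

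Of the members that act on the cell cycle, Cdkn1a was moderately lower and Ccng1 was at the 2-fold threshold. Cdkn1a (chr17:29090979-29100722) encodes p21, the inhibitor of cyclin-dependent kinases that carries out much of the arrest by p53. It was at 30.35 TPM in the Fabp4-/- library and 58.55 TPM in the WT library, a relative ratio of −0.48. Its log2 ratio by normalised counts was −0.38 (−0.45 to −0.31), beyond counting error but short of 2-fold. Ccng1 (chr11:40748552-40755311) encodes cyclin G1, which brings protein phosphatase 2A to the MDM2 protein. It was at 13.25 TPM in the Fabp4-/- library and 38.69 TPM in the WT library. The relative ratio of Ccng1 was −1.05, and its log2 ratio by normalised counts was −0.98 (−1.05 to −0.91), so that its call depends on the measure. Its paralog Ccng2 was at 4.45 TPM in the Fabp4-/- library and 6.14 TPM in the WT library, a relative ratio of 0.04.

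Other p53 targets of cell cycle arrest went both ways. Of 9 measured, TPM called 2 higher and 2 lower, while normalised counts called 2 higher and 3 lower. Psrc1, which encodes a microtubule-binding protein of the mitotic spindle, was at 19.72 TPM in the Fabp4-/- library and 78.76 TPM in the WT library. Zmat3, an RNA-binding zinc finger gene, was at 2.12 TPM in the Fabp4-/- library and 7.20 TPM in the WT library. Their relative ratios were −1.51 and −1.10. In contrast, the stress gene Gadd45a was at 30.50 TPM in the Fabp4-/- library and 8.83 TPM in the WT library, a relative ratio of 2.19. The kinase gene Plk3 had 97.34 TPM in the Fabp4-/- library and 31.45 TPM in the WT library, a relative ratio of 2.07. Genes that p53 represses by way of p21 and the DREAM complex, which are genes of mitosis and DNA replication, had 14 measured members with 0 called in either direction by either measure. Their median relative ratio was 0.38, and 12 of the 14 lay above the median gene, but without centring their median was −0.08, so their direction turns with the scaling. The highest were Birc5 (0.82), Cdk1 (0.81) and Ccnb2 (0.80), with Cdk1 at 10.12 TPM in the Fabp4-/- library and 7.86 TPM in the WT library.

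**Figure D2:**
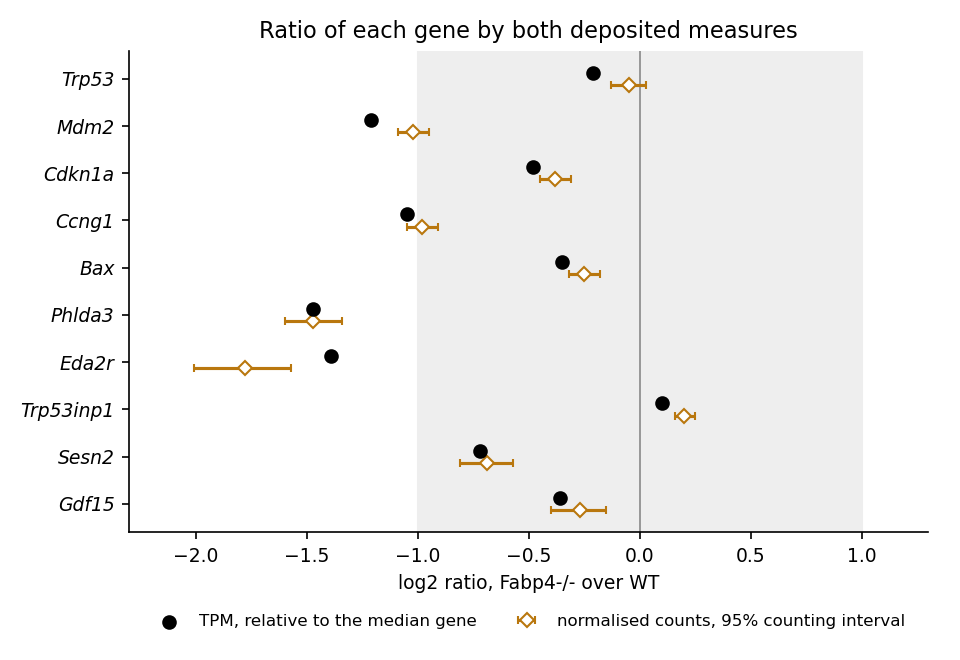
Log2 ratio of Fabp4-/- over WT for each member, by TPM relative to the median gene (black circles) and by normalised counts (open diamonds, whiskers are 95% exact binomial intervals of counting error only). The grey band spans differences under 2-fold, and Phlda3, Eda2r and Mdm2 lie left of it by both measures, with Ccng1 on its edge and Trp53inp1 the only gene right of 0 (−0.36 without centring).

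Of the members that promote cell death or restrain survival signals, Phlda3 and Eda2r were the lowest of all 10, whereas Bax and Trp53inp1 were not called. Phlda3 (chr1:135766119-135769136) encodes a protein that competes with AKT for membrane lipids and so holds AKT back. It was at 10.38 TPM in the Fabp4-/- library and 40.83 TPM in the WT library. Its log2 ratio was −1.47 both relative to the median gene and by normalised counts (−1.60 to −1.34), and 271 measured genes had a lower relative ratio. Its paralogs Phlda1 and Phlda2 had relative ratios of 0.75 and 0.84. Phlda1 had 156.96 TPM in the Fabp4-/- library and 128.31 TPM in the WT library.

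Eda2r (chrX:97333840-97377216) encodes a receptor of the TNF receptor superfamily that binds ectodysplasin A2. It was the weakest member, at 1.11 TPM in the Fabp4-/- library and 5.29 TPM in the WT library, from 210 and 932 estimated read pairs. The relative ratio of Eda2r was −1.39, held towards 0 by the added 0.5 TPM, and its log2 ratio by normalised counts was −1.78 (−2.01 to −1.57), a 3.45-fold lower level. The ligand gene Eda was at 0.11 TPM in the Fabp4-/- library and 0.08 TPM in the WT library, under the minimum in both.

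Bax (chr7:45461697-45466898), whose product permeabilizes the outer mitochondrial membrane in apoptosis, was the most abundant member in both libraries. It was at 73.34 TPM in the Fabp4-/- library and 128.74 TPM in the WT library, a relative ratio of −0.35. By normalised counts its log2 ratio was −0.25 (−0.32 to −0.18). Of the Bcl-2 family genes listed as paralogs and partners of Bax, which leaves out the p53 targets Bid, Pmaip1 and Bbc3, the lowest relative ratio was −0.41 for the anti-apoptotic Bcl2l2 and the highest 0.47 for Bok. Bak1, which acts in parallel with Bax, was at 7.43 TPM in the Fabp4-/- library and 11.22 TPM in the WT library. Trp53inp1 (chr4:11156431-11174379) encodes a stress protein that promotes apoptosis and autophagy. It was at 24.34 TPM in the Fabp4-/- library and 31.42 TPM in the WT library. Its relative ratio was 0.10 and its log2 ratio by normalised counts 0.20 (0.16 to 0.25), but without centring the TPM ratio was −0.36, so the direction of Trp53inp1 turns with the scaling.

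Of 12 other targets in apoptosis, TPM called 1 lower and 0 higher, while normalised counts called 2 lower and 0 higher. The list had a median relative ratio of −0.41. Aen, a nuclease of apoptotic DNA breakdown, was at 15.35 TPM in the Fabp4-/- library and 47.36 TPM in the WT library, a relative ratio of −1.13. Just short of the threshold by TPM were the TRAIL receptor gene Tnfrsf10b and the BH3-only gene Bid, both at −0.98. Tnfrsf10b had 2.99 TPM in the Fabp4-/- library and 8.97 TPM in the WT library. Fas was at 8.63 TPM in the Fabp4-/- library and 12.94 TPM in the WT library, and Bbc3, the gene of PUMA, at 5.62 and 4.69 TPM, with relative ratios of −0.10 and 0.70.

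The stress and secretory members Sesn2 and Gdf15 were below the median gene but were not called. Sesn2 (chr4:132492032-132510501) encodes a leucine sensor that restrains the growth kinase complex mTORC1. It was at 4.89 TPM in the Fabp4-/- library and 11.70 TPM in the WT library. Its relative ratio was −0.72 and its log2 ratio by normalised counts −0.69 (−0.81 to −0.57). Gdf15 (chr8:70629393-70632456) encodes a secreted factor of the TGF-β superfamily that lowers food intake through the receptor GFRAL in the hindbrain. It was at 13.80 TPM in the Fabp4-/- library and 24.69 TPM in the WT library, a relative ratio of −0.36 and a log2 ratio of −0.27 by normalised counts (−0.40 to −0.15). Gfral is listed at 0 in both libraries.

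Both genes are also induced by ATF4, the factor of the integrated stress response, and Sesn2 by NRF2, the factor of the antioxidant response. Of 12 measured ATF4 and stress response genes, TPM called 1 higher and 1 lower, with a median relative ratio of −0.15, while normalised counts called 2 higher and 1 lower, the added gene being Chac1 (log2 ratio 1.05). Atf3 was at 42.05 TPM in the Fabp4-/- library and 18.57 TPM in the WT library, and Slc7a11, the cystine importer, at 1.02 and 4.25 TPM. Atf4 itself had 124.46 TPM in the Fabp4-/- library and 170.75 TPM in the WT library, a relative ratio of 0.01. Of 10 NRF2 target genes, TPM called 1 lower and 0 higher, with a median of −0.42, while normalised counts called 0 lower and 1 higher. The gene called lower was Osgin1, at 132.94 TPM in the Fabp4-/- library and 373.64 TPM in the WT library, which by normalised counts had a log2 ratio of −0.93 and was not called. The gene called higher by normalised counts was Gsta1 (log2 ratio 1.05), at 138.19 TPM in the Fabp4-/- library and 99.34 TPM in the WT library.

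Targets in DNA repair and nucleotide supply were mostly below the median gene, and targets in metabolism lay on both sides. Of 8 repair genes, 7 lay below the median gene and 1 was called lower, with a median of −0.36. That gene was Polk, a DNA polymerase that copies past damaged bases, at 1.56 TPM in the Fabp4-/- library and 5.87 TPM in the WT library. Of 16 metabolic targets, 2 were called higher and 1 lower, with a median of 0.07. Gls2, the glutaminase of liver that is also a gene of periportal hepatocytes, was at 88.42 TPM in the Fabp4-/- library and 23.14 TPM in the WT library, a relative ratio of 2.37. Lpin1, a phosphatidate phosphatase of lipid synthesis, was at 35.59 TPM in the Fabp4-/- library and 9.19 TPM in the WT library, a relative ratio of 2.36. The gene called lower was Ak1, an adenylate kinase, at 0.59 TPM in the Fabp4-/- library and 3.13 TPM in the WT library. Over the 45 measured targets of these 4 lists, TPM called 5 lower and 4 higher, while normalised counts called 7 lower and 4 higher. These are 11.1% lower and 8.89% higher by TPM, beside 40.0% and 0% of the 10 members. By normalised counts, 3 of the 10 members were called lower and 0 higher. The members and these lists were chosen with earlier results of these data known. Whether the members differ from other p53 targets was therefore not tested by these shares.

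**Figure D3:**
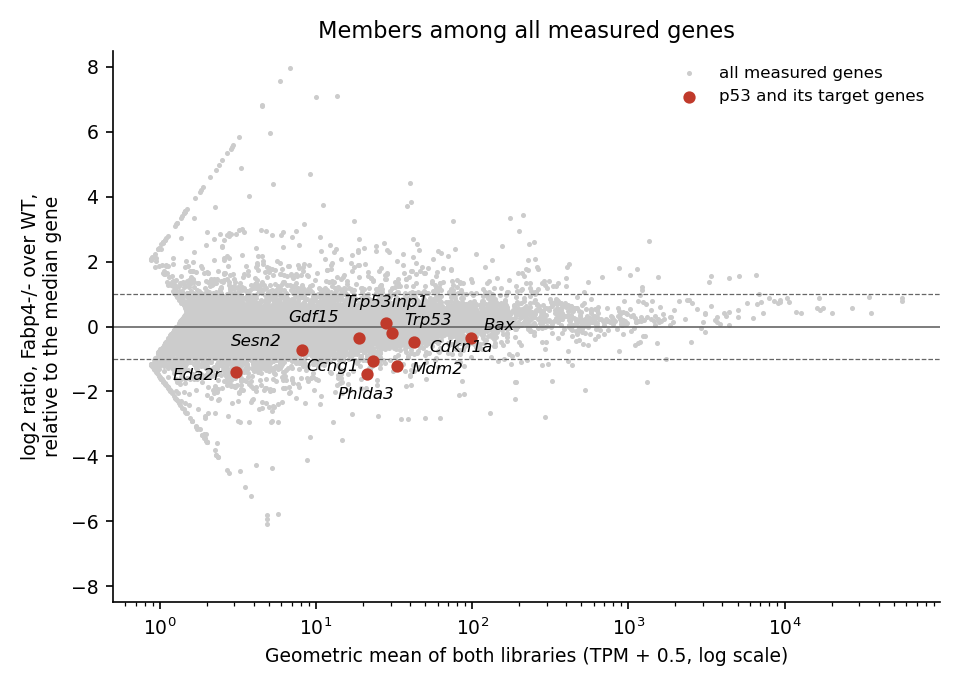
Relative log2 ratio of each of the 13557 measured genes (grey) against its geometric mean level in both libraries (log axis), with the 10 members in red and dashed lines at a 2-fold difference. Phlda3, Eda2r, Mdm2 and Ccng1 lie below the lower dashed line, and the other 6 members lie between the lines.

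The order of the members by level differed between the libraries. In the Fabp4-/- library it ran Bax, Cdkn1a, Trp53inp1, Trp53, Mdm2, Gdf15, Ccng1, Phlda3, Sesn2 and Eda2r. In the WT library it ran Bax, Mdm2, Cdkn1a, Phlda3, Ccng1, Trp53, Trp53inp1, Gdf15, Sesn2 and Eda2r. Mdm2 and Cdkn1a were nearly equal in WT, at 58.73 and 58.55 TPM, and Trp53inp1 and Trp53 were nearly equal in Fabp4-/-, at 24.34 and 23.83 TPM. With 1 library per genotype, no spread tells which neighbours in these orders differ.

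Levels divided by the Trp53 level of the same library do not depend on how the libraries are scaled. Mdm2 had 0.759 TPM for each TPM of Trp53 in the Fabp4-/- library and 1.54 in the WT library. The same quotient of Phlda3 was 0.436 in the Fabp4-/- library and 1.07 in the WT library, and that of Ccng1 was 0.556 and 1.01. Eda2r had 0.0466 in the Fabp4-/- library and 0.138 in the WT library. By contrast, Cdkn1a had 1.27 in the Fabp4-/- library and 1.53 in the WT library, Bax 3.08 and 3.36, and Gdf15 0.579 and 0.645. Sesn2 had 0.205 in the Fabp4-/- library and 0.306 in the WT library. Trp53inp1 was the only member with a higher quotient in the Fabp4-/- library, 1.02 against 0.821 in the WT library.

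Markers of lymphocytes, mast cells and hepatocytes differed between the libraries too. Among the T and NK cell markers, 8 of the 9 measured were called lower and 0 higher, and the 11 genes of the list summed to 8.55 TPM in the Fabp4-/- library and 78.2 TPM in the WT library. The measured marker that was not called was Gzma, with a relative ratio of −0.01. The NK receptor genes Klrb1c and Ncr1 were under the minimum in both libraries, so neither could be called. Of 7 B and plasma cell markers, 3 were called lower, with a sum of 222 TPM in the Fabp4-/- library and 472 TPM in the WT library. Ighm had 19.53 TPM in the Fabp4-/- library and 194.98 TPM in the WT library, a relative ratio of −2.83. The list was split, with 5 markers below the median gene and 2 above it. Those above were the plasma cell genes Jchain and Mzb1, with relative ratios of 0.09 and 0.13. Jchain was at 183.31 TPM in the Fabp4-/- library and 236.38 TPM in the WT library. Of 6 mast cell markers, 5 were called lower, with a sum of 2.64 TPM in the Fabp4-/- library and 113 TPM in the WT library. None of these markers is listed at 0 in either library. Of 10 hepatocyte markers, 3 were called higher (4 by normalised counts) and 0 lower. Their median relative ratio was 0.87 (0.41 without centring). They summed to 128000 TPM in the Fabp4-/- library and 94200 TPM in the WT library. Apob and Hnf4a went the other way in TPM and had relative ratios of 0.18 and 0.11. Apob was at 1334.47 TPM in the Fabp4-/- library and 1615.95 TPM in the WT library. The part of these cell type differences in the ratios of the p53 target genes was not tested.

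**Figure D4:**
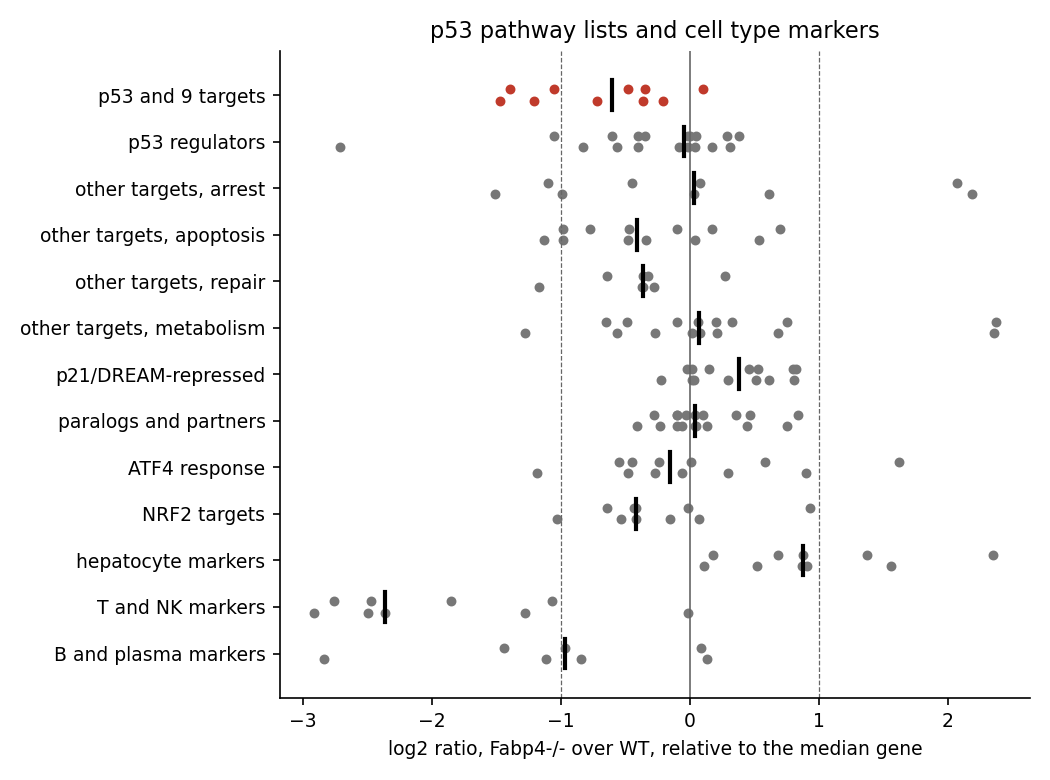
Relative log2 ratio of each measured gene (points) in the 10 members (red), 9 lists of p53 pathway and related stress genes, and 3 lists of cell type markers, with the median of each list as a black bar and dashed lines at a 2-fold difference. The members have a median of −0.60, the p21/DREAM-repressed genes 0.38 (−0.08 without centring), hepatocyte markers 0.87 and T and NK markers −2.36.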

How the data were processed

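The members and gene lists were chosen with earlier results of these data known. PolyA RNA was sequenced by the authors in 1 library per genotype, and mm10, RSEM 1.2.31 and STAR 2.5.2 are named in the submitters' processing notes, without settings. The authors deposited TPM, which sum to 1000000 in each library, and normalised counts, a signal on a read scale that corresponds to estimated counts divided by 1 size factor per library. Fold changes and probabilities of the authors' own comparison in the same table were not used. The most frequent normalised value above 0, 1.13 for Fabp4-/- and 0.882 for WT, was taken as 1 read pair, and 86.7% and 86.4% of values above 0 were then whole to within 0.01 read pairs. Estimated read pairs gave the depth and the exact binomial intervals, which do not tell amplified copies apart.

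Ratios used a pseudocount of 0.5 TPM and genes at 1 TPM or more in the higher library, minus the median of those genes. Calls were made at 2-fold. No test between genotypes was possible. Besides the members, 18 lists with 199 gene entries were drawn from textbook knowledge. All were in the table, 2 under an older symbol. Up to 4 genes per list with the largest ratios either way were named, with paralogs and partners of members. Atf4, Fas, Bbc3, Gzma, Klrb1c, Ncr1, Jchain, Mzb1, Apob and Hnf4a were added after their values were seen. No gene was named for a similar pattern, since 2 libraries give none. The sources used here do not state how strand was treated. Loci overlapping Bax and Sesn2 were each under 1 TPM. Alternatives were pseudocounts of 0.1 and 1 TPM, no minimum, a minimum of 5 TPM, scaling by the upper quartile or by totals without the 20 most abundant genes, no centring, normalised counts and thresholds of 1.5-fold and 4-fold. Functions were tested on simulated data. Software was matplotlib 3.10.9, scipy 1.17.1, pandas 2.3.3, numpy 2.4.6 and Python 3.11.15. Gene coordinates are those of the deposited table.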

Additional observations from a re-analysis of the deposited data

How the results depend on the processing

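No paired analysis was possible because neither genotype had more than 1 library. Under the 10 alternatives for counts, 0 members were called higher in each, and 3 to 5 were called lower, apart from 0 at a 4-fold threshold. By normalised counts Ccng1 lost its call. The median of the members, −0.60, was −0.78 with no minimum, −1.06 with no centring, −0.74 with upper quartile scaling and −0.90 with totals without the 20 most abundant genes, where the median of all genes was 0, −0.46, −0.15 and −0.31. All members but Trp53inp1 kept a negative ratio under all 8 alternatives for ratios. Trp53inp1 lay between −0.36 and 0.20 and was negative in 4. Of the other p53 targets, 5 called lower became 8 with a pseudocount of 0.1 TPM, no minimum or upper quartile scaling, 3 with a pseudocount of 1 TPM, 12 with no centring, 9 without the top genes, 11 at 1.5-fold and 0 at 4-fold, while 4 called higher became 8 at 1.5-fold. Lower calls made up 51.7% of all calls over the measured genes, 64.9% with no minimum, 79.0% without the top genes, 86.7% with no centring and 68.0% with upper quartile scaling. The 625 genes called higher became 392 with a minimum of 5 TPM, 296 with no centring, 369 without the top genes, 1516 at 1.5-fold and 145 at 4-fold. The 670 called lower became 1022 and 442 with pseudocounts of 0.1 and 1 TPM, 404 with a minimum of 5 TPM, 1391 without the top genes, 1928 with no centring, 1039 with upper quartile scaling, 1030 by normalised counts, 1707 at 1.5-fold and 117 at 4-fold. A stricter threshold or minimum left fewer calls over all measured genes, whereas the other p53 targets called lower were 7 with a minimum of 5 TPM. With no centring the −0.46 stays in every ratio, so more genes pass the lower threshold. Otherwise the cause was not tested. Eda2r, with 210 read pairs in the Fabp4-/- library, had the widest interval of the members.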

Other observations

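By their medians, other cell type markers lay nearer to the median gene than those of lymphocytes and mast cells. Of 7 measured macrophage and Kupffer cell markers, 2 were called higher and 0 lower in the Fabp4-/- library, and the Kupffer cell lectin Clec4f was at 24.74 TPM there and 14.71 TPM in the WT library. Below the median gene lay 2 of these 7, and the lowest was Adgre1 at −0.51, with 2.31 TPM in the Fabp4-/- library and 5.01 TPM in the WT library. Of 4 neutrophil markers, 1 was called higher, and of 7 endothelial markers, 2 were called higher, among them Lyve1 at 5.58 TPM in the Fabp4-/- library and 3.49 TPM in the WT library. Of 7 stellate cell and fibroblast markers, 1 was called higher and 0 lower. The gene called was Acta2, at 33.30 TPM in the Fabp4-/- library and 20.16 TPM in the WT library. Below the median gene lay 3 of these 7, and the lowest was Pdgfrb at −0.80, with 2.53 TPM in the Fabp4-/- library and 6.77 TPM in the WT library. Of 6 cholangiocyte markers, 1 was called higher, Spp1, at 985.38 TPM in the Fabp4-/- library and 467.88 TPM in the WT library, and 1 lower, Krt7, at 0.19 and 1.48 TPM. Normalised counts called 3 macrophage and 2 neutrophil markers higher and 2 cholangiocyte markers lower, and the other counts of calls in these 5 lists were equal by both measures.

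Of the paralogs and partners of the members, 0 of 18 measured were called in either direction by either measure.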
